A study of Homo sapiens with 12 samples.

Results

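The genes examined here are 9 members of the enzyme systems that cut the extracellular matrix: the matrix metalloproteinases MMP1, MMP2 and MMP14, their tissue inhibitors TIMP1, TIMP2 and TIMP3, the urokinase plasminogen activator PLAU, its receptor PLAUR and the protease inhibitor SERPINE2. They were chosen by name, and all 9 were found among the 64252 gene IDs counted in each library. The cells were MDA-MB-231, an established line of human triple-negative breast cancer, transfected by Lipofectamine 3000 with Dicer DNA. Dicer is the ribonuclease from whose cuts mature microRNAs arise. The plasmid carried Dicer with mutation 1, with mutation 2 or with mutation 3, or wild-type Dicer; the labels number the mutations and do not say what they change. Each group held 3 poly(A)-selected libraries, 12 in all, so every group shared the transfection and an added Dicer. Cells with an empty plasmid or without plasmid were not analysed here, and the cells' own Dicer gene was not described as altered. Whether the libraries of a group are separate cultures is not stated, and the spread that p-values rest on may be technical.

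Matrix metalloproteinases are zinc enzymes made as inactive precursors. MMP1 cuts fibrillar collagen, MMP2 cuts basement membrane collagen, and MMP14 sits in the cell membrane, where it cuts collagen and activates the MMP2 precursor with the help of TIMP2. TIMPs bind the active site of the enzymes and block it, and TIMP3 stays bound to the matrix. PLAU, held at the cell surface by PLAUR, turns plasminogen into plasmin, which degrades fibrin and can activate metalloproteinase precursors, and the serpin SERPINE2 can inhibit it. MDA-MB-231 is widely used as an invasive breast cancer line, and both systems are studied in it as tools of invasion.

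Because Dicer makes microRNAs, and because TIMP3 and the PLAU gene are textbook microRNA targets, the seed sites of 9 microRNAs were looked up in the 3′ untranslated regions (3′UTRs) of the 9 genes. The microRNAs were chosen with results of these data known, their levels were not analysed here, and a match describes sequence only. The mature sequences of the pair with the sites shown here, from RefSeq (GRCh38.p14), are printed with the seed, bases 2 to 8, in capitals.
hsa-miR-21-5p: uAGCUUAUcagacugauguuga
hsa-miR-193b-3p: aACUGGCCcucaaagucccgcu
The 3′UTR of TIMP3 (3666 bases, GENCODE v29 on GRCh38) held 7 sites for 5 of the 9 microRNAs, more than that of any other member, and 2 of them matched miR-21-5p. It was also the longest of the 9, against a median of 876 bases over all 3′UTRs, and a longer one has more room for matches. Capitals mark the match to the seed in each 30-base stretch of the plus strand, at chr22:32860394-32860423 and chr22:32861747-32861776.
TIMP3, first miR-21-5p site: tacccacatggggacATAAGCTaatttttt
TIMP3, second miR-21-5p site: ggttttgagctttctATAAGCTatagcttt
Sites for miR-193b-3p lay in 4 members. They are shown because the list joins a protease, an inhibitor, the activator and its receptor, and they lie at chr14:22846074-22846103 (plus strand), chr22:32862307-32862336 (plus), chr10:73917327-73917356 (plus) and chr19:43648782-43648811 (minus).
MMP14: gactttgcctctgaaGGCCAGTggcagcag
TIMP3: ggctctcagctctcgGGCCAGTgctctgct
PLAU: agatgtccctttcttGGCCAGTtatccctt
PLAUR: tgctgtgtgacctcaGGCCAGTgtgccgac
Among 18929 3′UTRs, not matched for length, 7.71% held a miR-21-5p site and 9.09% a miR-193b-3p site. TIMP1, with a 3′UTR of 98 bases, and SERPINE2, with 755 bases, held none of the 9 seeds' sites. Of the 4 members with a miR-193b-3p site, TIMP3 and PLAU were called higher with mutation 1 and mutation 3, and PLAU with mutation 2. MMP14 and PLAUR were called lower with mutations 2 and 3. With mutation 1 they were not called with all libraries, but were lower without wild-type replicate 1. TIMP3 with mutation 2 was likewise not called with all libraries, but was lower without that library. Of all genes, 32.5% were higher and 36.5% lower with mutation 1, 16.9% and 20.1% with mutation 2, and 28.1% and 31.2% with mutation 3. Without that library, 42.5% were lower with mutation 1 and 34.9% with mutation 2.

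Levels are in CPM, the usual rate of counts over a library's total, with totals adjusted by the trimmed mean of M-values (TMM). A gene is called different where its edgeR quasi-likelihood test, fitted over all 12 libraries and 15094 genes, had a Benjamini-Hochberg adjusted p under 0.05. Group values are mean ± SD (n = 3), and the error of a log2 fold change is its standard error (SE).

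Library totals ran from 13507341 to 17078273 counts. The libraries within each mutant group lay close together: over genes, chi-square per degree of freedom between libraries of a group, which is near 1 where they differ by sampling alone, was 1.30 to 3.51. Wild-type replicates 2 and 3 gave 1.26, but wild-type replicate 1 stood apart from them, with 148.21 and 141.37. Mitochondrial genes took 3.34 to 3.46% of the counts in mutation 1, 6.39 to 7.67% in mutation 2, 8.77 to 9.02% in mutation 3, and 2.08% in wild-type replicate 1 against 7.83 and 7.92% in wild-type replicates 2 and 3. DICER1 lay at 42.2 to 45.3, 44.4 to 45.7 and 38.8 to 40.1 CPM in mutations 1, 2 and 3, and at 27.4, 45.2 and 47.4 CPM in wild-type replicates 1, 2 and 3. No pair of groups differed in DICER1 past the threshold, so its counts give no check of the labels. Of the cell line markers, VIM averaged 733 to 1581 CPM over the groups, while ESR1 and PGR, the hormone receptors that such cells lack, stayed under 0.5 CPM in group mean. The epithelial marker CDH1, which this line is known to have at very low levels, averaged 11.05, 0.800 and 0.601 CPM with mutations 1, 2 and 3, and had 13.9, 1.17 and 1.23 CPM in wild-type replicates 1, 2 and 3. EPCAM, another epithelial marker, averaged 30.6, 16.4 and 18.2 CPM with mutations 1, 2 and 3, and had 17.7, 5.64 and 4.59 CPM in wild-type replicates 1, 2 and 3. The part of these differences in the results was not tested. The 10 identity markers summed to 4322 to 4421, 2480 to 2526 and 3420 to 3437 CPM with mutations 1, 2 and 3, against 3000 to 3165 CPM in wild type. Because wild-type replicate 1 stood apart, results against wild type are given with all libraries, and those of the members, the ratios and the counts of related genes also without wild-type replicate 1 where that moved them. For MMP1, MMP14, PLAUR and SERPINE2, however, it lay within the range of the mutant libraries, and wild-type replicates 2 and 3 lay above that range. For PLAU it lay farther from the mutant libraries than they did. Which wild-type libraries are typical cannot be told, so results without wild-type replicate 1 are not taken as cleaner.

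With mutation 1, 4 of the 9 genes were higher than with wild-type Dicer (TIMP1, TIMP2, TIMP3, PLAU), where 32.5% of all genes tested were higher, and 2 were lower (MMP1, SERPINE2), where 36.5% were lower. With mutation 2, 1 was higher (PLAU) against 16.9% of all genes, and 4 were lower (MMP1, MMP14, TIMP1, PLAUR) against 20.1%. With mutation 3, 2 were higher (TIMP3, PLAU) against 28.1%, and 5 were lower (MMP1, MMP14, TIMP1, PLAUR, SERPINE2) against 31.2%. With so large a share of all genes called, these counts say little about the 9 genes as a set. Without wild-type replicate 1 the members called higher and lower numbered 5 and 4 with mutation 1 (background 40.2% and 42.5%), 2 and 6 with mutation 2 (33.0% and 34.9%), and 3 and 5 with mutation 3 (38.2% and 38.8%). PLAU and MMP1 were called the same way with all 3 mutations, PLAU higher and MMP1 lower. An F test over the 4 groups called 8 of the 9, all but MMP2, against 83.0% of all genes. In edgeR fits of only mutation 2 and wild type the calls of MMP1, MMP14 and PLAUR were lost (adjusted p 0.151, 0.0911 and 0.0704), and with mutation 3 those of MMP14, PLAU and PLAUR (0.136, 0.155 and 0.108). The median log2 fold change of the 9 genes was 0.41, -0.57 and -0.21 with mutations 1, 2 and 3, and that of all genes was -0.04, -0.01 and -0.01.

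**Figure D1:**
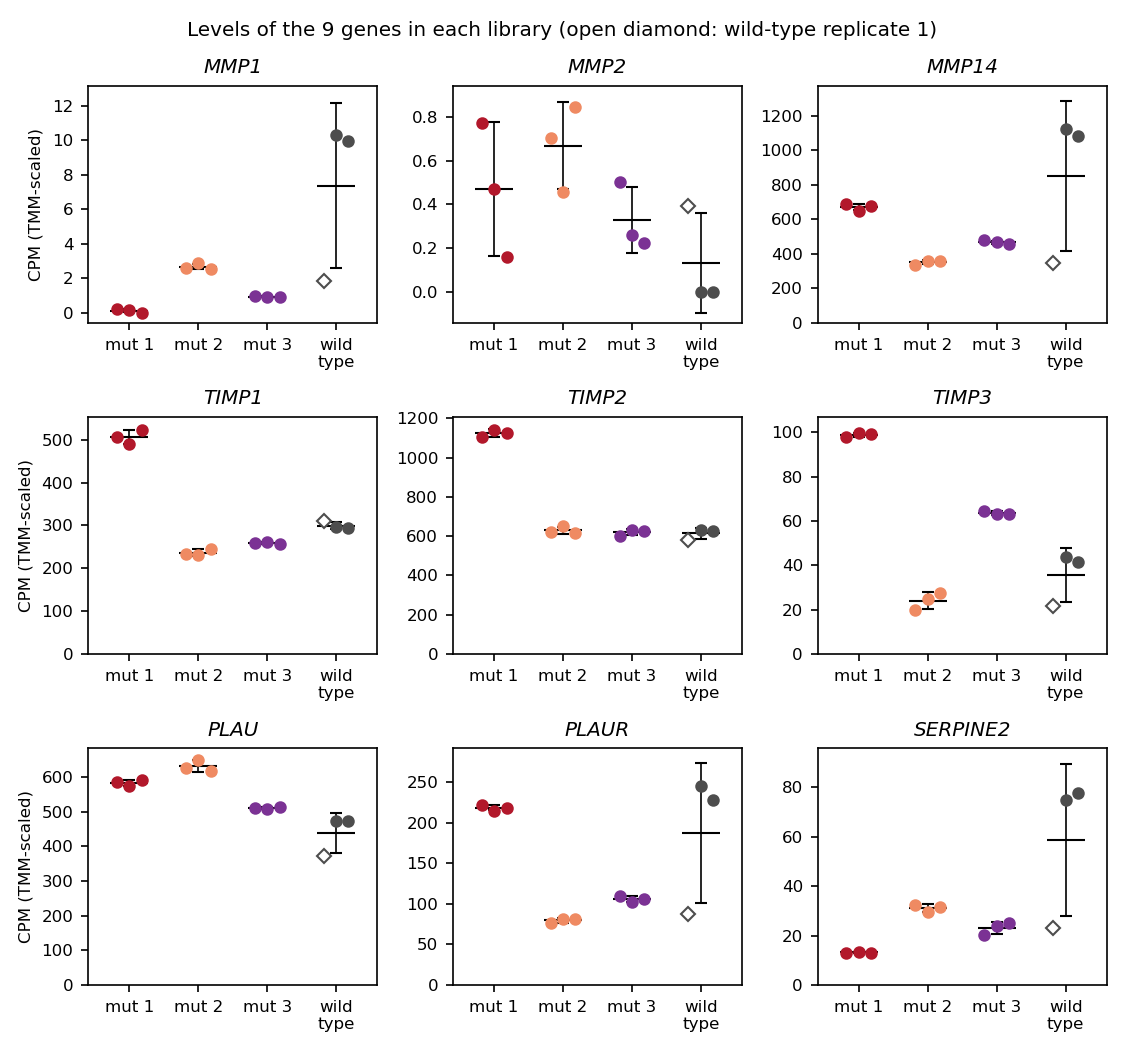
Level of each gene in every library (y axis, TMM-scaled CPM; each panel has its own scale) for mutations 1, 2 and 3 and wild type; points are libraries, bars show mean ± SD of 3, and the open diamond is wild-type replicate 1. Wild-type replicate 1 lies below wild-type replicates 2 and 3 for MMP1, MMP14, TIMP3, PLAU, PLAUR and SERPINE2, and TIMP1, TIMP2 and TIMP3 are highest with mutation 1.

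Among the proteases, MMP1, the interstitial collagenase (chr11:102789920-102798160, minus strand), was the member with the widest range. It had 0.211, 0.134 and 0 CPM with mutation 1, from 3, 2 and 0 counts. It had 2.60, 2.85 and 2.54 CPM with mutation 2 and 0.939, 0.915 and 0.889 CPM with mutation 3, against 1.84, 10.3 and 9.96 CPM with wild-type Dicer. The mutation 1 libraries were lowest and those of mutation 3 next, and both lay below every wild-type library, whereas those of mutation 2 lay above wild-type replicate 1 and below wild-type replicates 2 and 3. The log2 fold change against wild type was -5.85 (SE 0.78, adjusted p = 5.82e-05) with mutation 1, -1.47 (SE 0.51, adjusted p = 0.0425) with mutation 2 and -3.00 (SE 0.57, adjusted p = 0.00102) with mutation 3. Without wild-type replicate 1 these were -6.30, -1.92 and -3.45, all called lower. The fold for mutation 1 rests on 5 counts in all: scaled for library size, wild type had 72.7 times the summed count of mutation 1, with an exact 95% interval of 30.9 to 225 that covers counting error only. The mutation 2 call was lost when any 1 of 10 libraries was left out, which were all libraries other than wild-type replicate 1 and mutation 1 replicate 3 (adjusted p 0.0538 to 0.142). Between mutations, MMP1 was lower with mutation 1 than with mutation 2 (log2 fold change -4.39, SE 0.83, adjusted p = 7.79e-04) and lower with mutation 1 than with mutation 3 (-2.85, SE 0.94, adjusted p = 0.0315). It was lower with mutation 3 than with mutation 2 (-1.53, SE 0.59, adjusted p = 0.0483). The last of these was lost without any 1 of 8 libraries, mutation 1 replicates 1 and 2 and those of mutations 2 and 3 (adjusted p 0.053 to 0.102). That between mutations 1 and 3 was lost without any 1 of 5, mutation 1 replicates 2 and 3 and those of mutation 3 (0.0546 to 0.0811).

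MMP14, the membrane-bound metalloproteinase (chr14:22836557-22849027, plus strand), was far more abundant than MMP1 per kilobase of exon. It had 686, 650 and 678 CPM with mutation 1, 338, 360 and 357 CPM with mutation 2 and 477, 466 and 459 CPM with mutation 3, against 348, 1120 and 1080 CPM with wild-type Dicer. Wild-type replicate 1 lay inside the range of the mutation 2 libraries, and wild-type replicates 2 and 3 lay above every mutant library. The gene was lower than in wild type with mutation 2 (log2 fold change -1.27, SE 0.32, adjusted p = 0.0105) and mutation 3 (-0.86, SE 0.32, adjusted p = 0.0375), and with mutation 1 the difference was -0.34 (SE 0.32, adjusted p = 0.359). Without wild-type replicate 1 it was called lower with all 3 mutations, with log2 fold changes of -0.71, -1.64 and -1.23. The call with mutation 3 was lost without wild-type replicate 2 or 3, or without any 1 library of mutations 2 and 3 (adjusted p 0.0516 to 0.142). Among the mutations, MMP14 was higher with mutation 1 than with mutation 2 (0.93, SE 0.32, adjusted p = 0.0241), a call lost without any 1 of the mutation 2 libraries (0.0568 to 0.0671). The 3 mutant groups did not overlap one another, yet mutation 1 minus mutation 3 (0.52, adjusted p = 0.213) and mutation 3 minus mutation 2 (0.41, adjusted p = 0.3) were not called in the fit of 4 groups, whose shared spread includes wild-type replicate 1. In fits of the 2 groups alone they were called, with adjusted p = 1.48e-28 and 2.96e-22.

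MMP2, the gelatinase (chr16:55389700-55506691, plus strand), was close to undetected. It had 11, 7 and 2 counts with mutation 1, 10, 7 and 15 with mutation 2 and 8, 4 and 3 with mutation 3, against 6, 0 and 0 counts with wild-type Dicer. No library passed 1 CPM, and the groups overlapped except for mutation 2, whose 3 libraries lay above the wild-type ones. No comparison was called in the edgeR fit of all 12 libraries (adjusted p from 0.0602 to 0.653). The DESeq2 Wald test of the same libraries called MMP2 higher with mutation 2 (2.394, adjusted p = 0.0497). Without wild-type replicate 1 all 3 mutations were called higher, but then both wild-type libraries were at 0 and the fitted fold has no meaning as a size. The other secreted metalloproteinases MMP3, MMP10 and MMP13 averaged at most 0.497 CPM in any group and did not pass the filter on low counts. MMP9, the other gelatinase, averaged 0.29, 0.94 and 0.255 CPM with mutations 1, 2 and 3, against 0.786 CPM in wild type, and no comparison with wild type was called with all libraries; without wild-type replicate 1 it was called higher with mutation 2 (1.59, adjusted p = 0.00555).

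The 3 inhibitors had in common that they were highest with mutation 1. TIMP1 (chrX:47582313-47586789, plus strand) had 506, 491 and 522 CPM with mutation 1, 233, 230 and 246 CPM with mutation 2 and 260, 261 and 257 CPM with mutation 3, against 310, 297 and 293 CPM with wild-type Dicer. No mutant library overlapped the wild-type ones: mutation 1 lay above them, and mutations 2 and 3 below. TIMP1 was higher with mutation 1 (log2 fold change 0.76, SE 0.05, adjusted p = 2.91e-07) and lower with mutation 2 (-0.34, SE 0.05, adjusted p = 4.84e-04) and mutation 3 (-0.21, SE 0.05, adjusted p = 0.0044). It was also higher with mutation 1 than with mutation 2 (1.10, adjusted p = 1.88e-08) or mutation 3 (0.96, adjusted p = 2.88e-07). The small excess of mutation 3 over mutation 2 (0.13, adjusted p = 0.0437) was lost when any library other than wild-type replicate 1 or mutation 2 replicate 3 was left out (0.0515 to 0.188).

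TIMP2 (chr17:78852977-78925387, minus strand), which blocks MMP2 and also carries its precursor to MMP14, was called different only in the 3 comparisons with mutation 1. It had 1106, 1143 and 1127 CPM with mutation 1, 622, 651 and 616 CPM with mutation 2 and 603, 632 and 626 CPM with mutation 3, against 582, 631 and 629 CPM with wild-type Dicer. The mutation 1 libraries stood above all the others, and the remaining 3 groups overlapped. The log2 fold change with mutation 1 was 0.87 against wild type (SE 0.05, adjusted p = 1.46e-07), 0.84 against mutation 2 (adjusted p = 1.94e-07) and 0.86 against mutation 3 (adjusted p = 9.51e-07). Against wild type it was 0.04 (SE 0.05, adjusted p = 0.62) with mutation 2 and 0.01 (SE 0.05, adjusted p = 0.825) with mutation 3.

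TIMP3 (chr22:32801701-32863043, plus strand), the matrix-bound inhibitor whose miR-21-5p sites are printed above, had 97.9, 99.6 and 99.1 CPM with mutation 1, 19.99, 24.8 and 27.5 CPM with mutation 2 and 64.5, 63.1 and 63.1 CPM with mutation 3, against 21.6, 43.9 and 41.5 CPM with wild-type Dicer. The mutation 1 libraries were highest, those of mutation 3 next, and wild-type replicate 1 lay among the mutation 2 libraries. TIMP3 was higher with mutation 1 (log2 fold change 1.47, SE 0.21, adjusted p = 1.11e-04) and mutation 3 (0.83, SE 0.21, adjusted p = 0.00591). With mutation 2 the log2 fold change was -0.57 (SE 0.21, adjusted p = 0.0608), which became a call of -0.81 without wild-type replicate 1. Mutation 1 exceeded mutation 2 by 2.04 (SE 0.22, adjusted p = 1.13e-05), a 4.10-fold difference, and mutation 3 exceeded mutation 2 by 1.40 (SE 0.22, adjusted p = 2.84e-04). Mutation 1 exceeded mutation 3 by 0.64 (SE 0.21, adjusted p = 0.03), a call lost without any 1 of mutation 1 replicates 2 and 3 and the mutation 3 libraries (0.0528 to 0.0617).

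Fibroblasts are also rich in TIMPs. A list of 6 fibroblast markers summed to 110 to 121 CPM with mutation 1, 20.8 to 28.9 CPM with mutation 2 and 40.9 to 45.6 CPM with mutation 3, against 23.4 to 39.6 CPM with wild-type Dicer. DCN, the defining fibroblast proteoglycan, was at 0 in every library, and most of the sum came from PDGFRB (79.4 CPM with mutation 1, 9.10 CPM in wild type) and COL1A1 (34.3 and 17.8 CPM). The other markers were lower with mutation 1 than in wild type in group mean, COL3A1 at 0.0704 and 0.994 CPM, COL1A2 at 0.142 and 0.563 CPM and LUM at 0.0235 and 0.373 CPM, with no call for COL3A1 and too few counts to test COL1A2 and LUM. With mutation 3 the sum lay above wild type, while TIMP1 was called lower, TIMP2 was not called and TIMP3 was called higher. Their part in the TIMP levels was not tested. In RNA from whole cultures, fewer cells of a type and less RNA per cell cannot be told apart.

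**Figure D2:**
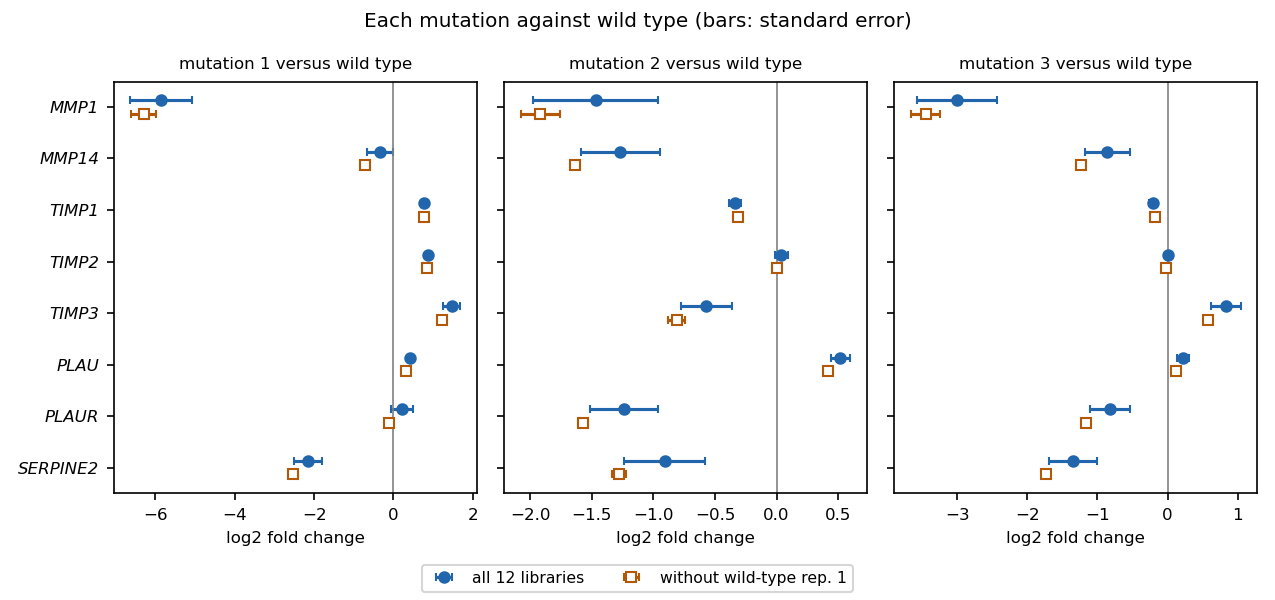
Log2 fold change of 8 genes with each mutation over wild type (x axis; bars are standard errors), from all 12 libraries (filled circles) and without wild-type replicate 1 (open squares); MMP2 is left out because it has too few counts. MMP1, MMP14, PLAUR and SERPINE2 shift to lower values without wild-type replicate 1, while TIMP1 and TIMP2 hardly move.

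In the plasminogen activator arm, PLAU (chr10:73909177-73917497, plus strand), the urokinase, was higher with every mutation, by modest amounts. It had 585, 573 and 590 CPM with mutation 1, 625, 650 and 618 CPM with mutation 2 and 511, 508 and 512 CPM with mutation 3, against 372, 473 and 472 CPM with wild-type Dicer. All 9 mutant libraries lay above all wild-type ones. The log2 fold changes were 0.41, 0.52 and 0.22 with mutations 1, 2 and 3 (SE 0.08 each), with adjusted p of 0.00115, 7.69e-04 and 0.0417. They were 0.31, 0.42 and 0.12 without wild-type replicate 1, all called. The mutation 3 call was lost without any 1 of 5 libraries, mutation 2 replicates 1 and 2 and those of mutation 3 (0.0509 to 0.0724). Between mutations, PLAU was lower with mutation 3 than with mutation 2 (-0.31, SE 0.08, adjusted p = 0.00935). The exons of PLAU share 31.05% of their length with the antisense gene C10orf55, and counting ignored strand. C10orf55 had 10 to 31 counts per library. How reads in the shared stretch were assigned was not examined, so these counts do not show whether the PLAU level was affected.

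PLAUR (chr19:43646095-43670547, minus strand), the receptor that holds urokinase at the cell surface, had 222, 215 and 219 CPM with mutation 1, 76.7, 81.1 and 81.1 CPM with mutation 2 and 110, 103 and 106 CPM with mutation 3, against 87.9, 246 and 229 CPM with wild-type Dicer. Wild-type replicate 1 lay between the mutation 2 and mutation 3 libraries, and wild-type replicates 2 and 3 lay above all mutant libraries. PLAUR was lower with mutation 2 (log2 fold change -1.24, SE 0.28, adjusted p = 0.00627) and mutation 3 (-0.82, SE 0.28, adjusted p = 0.026). With mutation 1 the sign depended on 1 library: 0.22 (SE 0.28, adjusted p = 0.49) with all libraries, and -0.11 (adjusted p = 0.00237) without wild-type replicate 1. The mutation 3 call was lost without wild-type replicate 2 or 3 or any 1 mutation 3 library (0.0506 to 0.106). PLAUR was higher with mutation 1 than with mutation 2 (1.46, SE 0.28, adjusted p = 9.57e-04) or mutation 3 (1.05, SE 0.28, adjusted p = 0.012). Mutation 3 against mutation 2 was not called with all libraries. In the edgeR fit of those 2 groups alone PLAUR was called higher (0.419, adjusted p = 9.14e-15).

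SERPINE2 (chr2:223975112-224039319, minus strand), also called protease nexin 1, inhibits urokinase, plasmin and thrombin. It had 13.1, 13.49 and 12.9 CPM with mutation 1, 32.6, 29.6 and 31.5 CPM with mutation 2 and 20.3, 23.8 and 25.0 CPM with mutation 3, against 23.2, 74.9 and 77.8 CPM with wild-type Dicer. The order of the mutant groups was that of MMP1, and wild-type replicate 1 lay among the mutation 3 libraries. SERPINE2 was lower with mutation 1 (log2 fold change -2.15, SE 0.35, adjusted p = 2.74e-04) and mutation 3 (-1.35, SE 0.34, adjusted p = 0.00563). With mutation 2 it was -0.91 (SE 0.33, adjusted p = 0.054), and -1.28 and called without wild-type replicate 1. It was lower with mutation 1 than with mutation 2 (-1.24, SE 0.35, adjusted p = 0.00906). Mutations 1 and 2 against mutation 3 were not called with all libraries. In edgeR fits of 2 groups alone SERPINE2 was lower in mutation 1 against 3 (-0.806, adjusted p = 8.37e-14). It was also lower there in mutation 3 against 2 (-0.438, adjusted p = 5.45e-08). Endothelial and leukocyte markers, like MMP1 and SERPINE2, were highest in wild type: 7 of them summed to 0.563 to 1.07 CPM with mutation 1, 0.451 to 0.985 CPM with mutation 2 and 0.915 to 1.31 CPM with mutation 3, against 3.08 to 18.8 CPM with wild-type Dicer, nearly all from PECAM1. Their part in the SERPINE2 and MMP1 levels was not tested.

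Between the mutations, 5 members were higher in mutation 1 than in mutation 2, where 31.8% of all genes were, and 2 were lower, where 33.6% were. Against mutation 3, 4 were higher in mutation 1, where 20.2% of all genes were, and 1 was lower, where 22.5% were. In mutation 3, 2 members were higher than in mutation 2 (TIMP1, TIMP3), where 25.7% of all genes were, and 2 were lower (MMP1, PLAU), where 27.2% were. The TIMP1 and MMP1 calls here were lost without many single libraries, as given above. The spread in this fit includes wild-type replicate 1. Without it, 5 members were higher and 3 lower in mutation 1 against 2 (6255 and 6422 of 15806 genes). They were 6 and 2 against mutation 3 (5208 and 5313), and 4 and 3 in mutation 3 against 2 (5731 and 5787). With all libraries, TIMP1, TIMP2, TIMP3 and PLAUR were higher and MMP1 lower with mutation 1 than with either other mutation. Fits of 2 groups alone added MMP14, PLAUR and SERPINE2 in mutation 3 against 2. They also added MMP14, PLAU and SERPINE2 in mutation 1 against 3, and PLAU in mutation 1 against 2. In those fits 5511 of 14143 genes were called higher and 5483 lower in mutation 3 against 2. In mutation 1 against 3 it was 4979 and 5094 of 14207, and in mutation 1 against 2 it was 5868 and 6048 of 14256. With so large a share of all genes called, the added calls say little about the members. The comparisons share libraries, so their calls are not separate evidence.

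**Figure D3:**
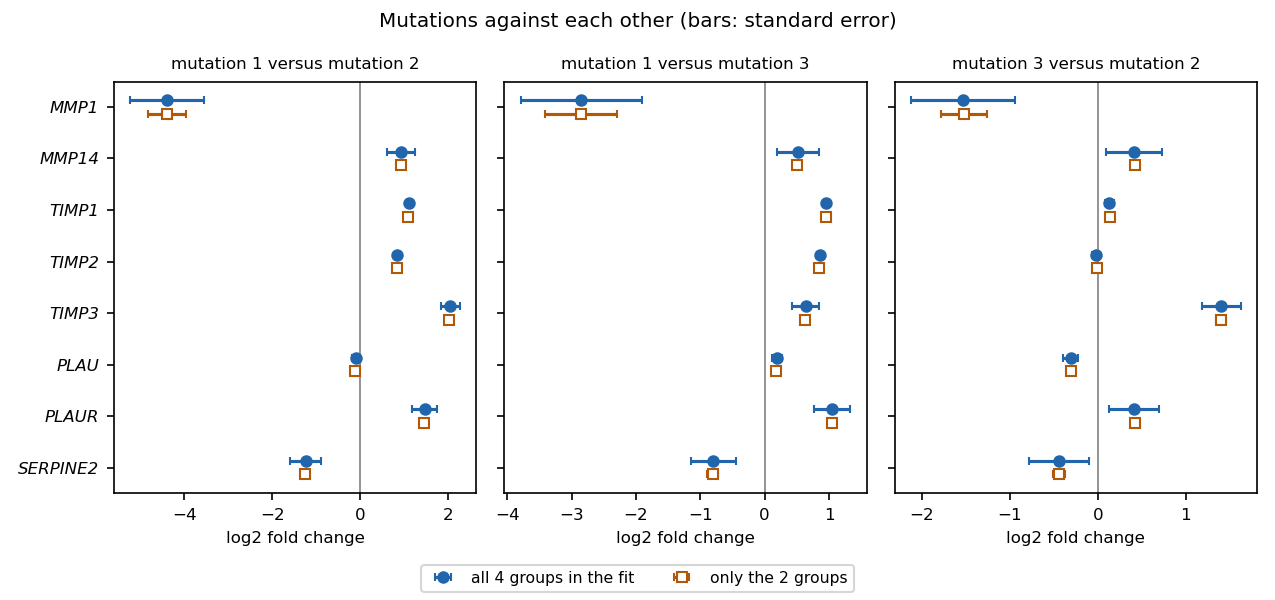
Log2 fold change of 8 genes between pairs of mutations (x axis; bars are standard errors; first-named mutation over the second), from the fit of all 4 groups (filled circles) and of the 2 groups alone (open squares). The estimates coincide and the errors are smaller in the fits of 2 groups; TIMP1, TIMP2, TIMP3 and PLAUR lie to the right and MMP1 and SERPINE2 to the left in mutation 1 against mutation 2.

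Levels were also put per kilobase of exon. The length merged all annotated exons of a gene and can exceed that of the transcripts made, so different genes compare only roughly. On this scale TIMP1 led with mutation 1 at 329 CPM per kb, followed by TIMP2 at 200, PLAU at 198, and MMP14 at 150 CPM per kb. With mutation 2 the order was PLAU at 214, TIMP1 at 153, TIMP2 at 112 and MMP14 at 78.8 CPM per kb. With mutation 3, PLAU at 173 and TIMP1 at 168 CPM per kb were close, ahead of TIMP2 at 110 and MMP14 at 105. In wild type, TIMP1 at 195 and MMP14 at 190 CPM per kb were ahead of PLAU at 149 and TIMP2 at 109, with MMP14 far apart between wild-type replicates. PLAUR lay at 17.9 to 49.1 and TIMP3 at 5.23 to 21.5 CPM per kb over the 4 groups, with SERPINE2 at 1.48 to 6.60. MMP1, at 0.058 to 3.74 CPM per kb, and MMP2, at 0.027 to 0.135, were the lowest of the 9.

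The balance of a protease to its inhibitor was taken as the log2 ratio of their counts in each library, which needs no scaling between libraries. With 3 libraries against 3, the exact two-sided permutation test cannot go below p = 0.1, so no ratio could pass 0.05. MMP14 to TIMP3 was 2.81, 2.71 and 2.77 with mutation 1, 4.08, 3.86 and 3.70 with mutation 2 and 2.89, 2.89 and 2.86 with mutation 3, against 4.01, 4.67 and 4.70 with wild-type Dicer. Mutations 1 and 3 lay below every wild-type library (mean differences -1.70 and -1.58, exact p = 0.1 each), while mutation 2 overlapped wild type (-0.58, exact p = 0.2). Leaving out wild-type replicate 1 gave mean differences of -1.93, -0.81 and -1.81 with mutations 1, 2 and 3. For MMP14 to TIMP2 the mean differences from wild type were -1.03, -1.13 and -0.70 with mutations 1, 2 and 3, and without wild-type replicate 1 they were -1.55, -1.64 and -1.21. The mutation 1 libraries lay on both sides of wild-type replicate 1, those of mutation 2 below all wild-type libraries, and those of mutation 3 between wild-type replicate 1 and the other two. PLAU to SERPINE2 lay higher than in wild type with all 3 mutations, by 2.38, 1.25 and 1.39, without overlap (exact p = 0.1 each), and by 2.83, 1.71 and 1.85 without wild-type replicate 1. MMP1 to TIMP1 differed from wild type by -6.37, -0.76 and -2.40 with mutations 1, 2 and 3 (-7.20, -1.59 and -3.24 without wild-type replicate 1). Mutations 1 and 3 lay below every wild-type library (exact p = 0.1 each), while mutation 2 overlapped wild type (exact p = 0.4). The mutation 1 values rest on 5 MMP1 counts. MMP2 to TIMP2, at few MMP2 counts, differed by 1.70, 3.19 and 2.22 (exact p = 0.4, 0.1 and 0.3), and only mutation 2 did not overlap wild type.

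**Figure D4:**
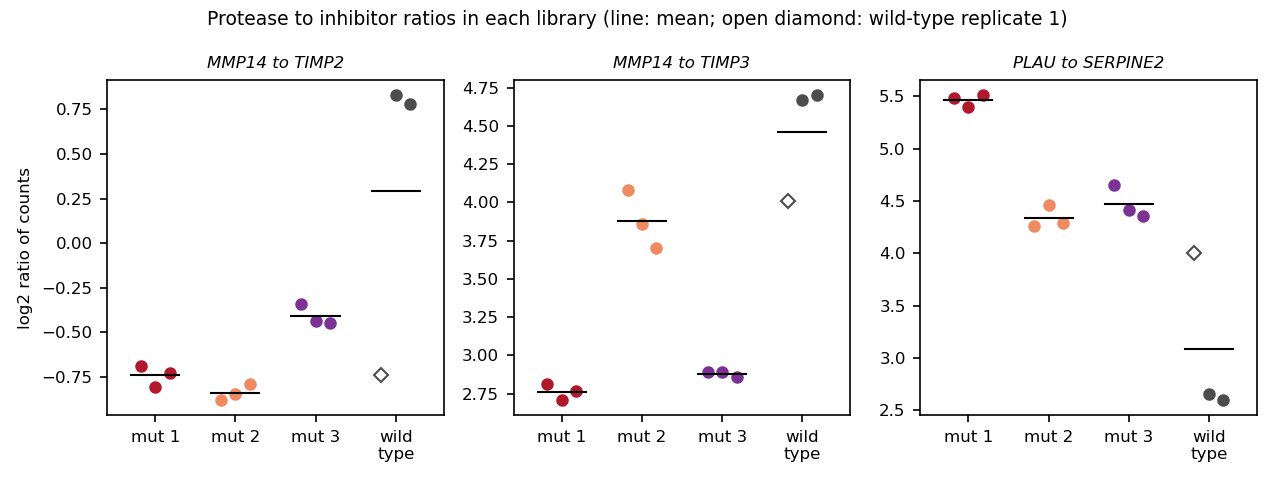
Log2 ratio of counts of protease to inhibitor in each library (y axis; each panel has its own scale, not starting at 0) for mutations 1, 2 and 3 and wild type; points are libraries, lines are means, and the open diamond is wild-type replicate 1. PLAU to SERPINE2 is above every wild-type library in all 9 mutant libraries, and MMP14 to TIMP3 is below every wild-type library with mutations 1 and 3.

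Related genes were counted against the same background: 32.5% of all genes tested were higher and 36.5% lower with mutation 1, 16.9% and 20.1% with mutation 2, and 28.1% and 31.2% with mutation 3. Without wild-type replicate 1 these shares were 40.2% and 42.5%, 33.0% and 34.9%, and 38.2% and 38.8%. Of 15 other plasminogen system genes, 10 were tested. In mutation 1, 6 were higher and 1 lower than in wild type, with a median log2 fold change of 0.39, in mutation 2 it was 1 and 4 with a median of -0.12, and in mutation 3 it was 3 and 2 with a median of 0.10. When that wild-type library was left out, 6 were higher and 3 lower with mutation 1, 3 and 4 with mutation 2, where the median turned to 0.08, and 5 and 3 with mutation 3, where it was 0.44. Left-out mutant libraries also moved the number called, to 3 with mutation 2 (without its replicate 2 or 3) and to 3 with mutation 3 (without its replicate 1). LRP1, the endocytic receptor that clears urokinase-inhibitor complexes, averaged 289 ± 10.9, 87.7 ± 4.58 and 149 ± 1.22 CPM with mutations 1, 2 and 3, against 60.7 ± 18.3 CPM in wild type, and was called higher with all 3 (log2 fold changes 2.25, 0.53 and 1.29). S100A10, a plasminogen receptor subunit, was higher with mutation 1 (0.39, adjusted p = 0.00915) and lower with mutation 2 (-0.55, adjusted p = 0.00319). MST1, a plasminogen-related growth factor, averaged 13.2, 4.03 and 9.62 CPM, against 3.08 CPM, and was called higher with mutations 1 and 3. PLGRKT, a plasminogen receptor of the cell surface, averaged 4.16 ± 0.433, 4.97 ± 0.776 and 5.04 ± 0.768 CPM, against 10.4 ± 1.99 CPM in wild type. It was lower with all 3 (-1.32, -1.06 and -1.04). PLAT, the tissue-type activator, averaged 388, 281 and 393 CPM, against 377 CPM in wild type, and was called lower with mutation 2 (-0.43, adjusted p = 0.0338), where the libraries overlapped.

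In the list of 21 other metalloproteinases and TIMP4, 8 genes were tested, of which 3 were higher and 3 lower with mutation 1, 0 and 3 with mutation 2, and 2 and 4 with mutation 3, with medians of -0.88, -0.48 and -1.54. The counts were 3 and 4 with each mutation without wild-type replicate 1. The 3 calls with mutation 2 fell to 1 without wild-type replicate 2 or mutation 2 replicate 3, and to 0 without wild-type replicate 3 or mutation 2 replicate 1. MMP19 averaged 2.47 ± 0.329, 5.37 ± 0.483 and 3.08 ± 0.129 CPM, against 9.94 ± 5.09 CPM in wild type, and was lower with mutation 1 (-2.01, adjusted p = 5.40e-04) and mutation 3 (-1.69, adjusted p = 0.00188). TIMP4 was lower with all 3 (log2 fold changes -0.70, -0.92 and -1.84) at 0.931 to 3.33 CPM in group mean. The membrane-type enzymes MMP24 (8.74, 2.99 and 6.80 CPM, against 2.58 CPM) and MMP25 (2.10, 0.590 and 1.06 CPM, against 0.621 CPM) were higher with mutations 1 and 3. The log2 fold changes of MMP24 were 1.77 and 1.41, and 2.49 and 2.12 without wild-type replicate 1.

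Among the 27 ADAM proteases, which shed membrane proteins or, as ADAMTS enzymes, cut matrix, 19 were tested: 9 were higher and 5 lower with mutation 1, 7 and 3 with mutation 2, and 9 and 5 with mutation 3, with medians of 0.33, 0.27 and 0.45. The counts became 11 and 5, 11 and 6, and 11 and 7 without wild-type replicate 1. ADAM9 averaged 470 ± 5.96, 234 ± 1.14 and 325 ± 12.5 CPM, against 248 ± 35.0 CPM in wild type, and was higher with mutation 1 (0.92, adjusted p = 4.49e-06) and mutation 3 (0.39, adjusted p = 0.00283). ADAMTS14, a procollagen peptidase, averaged 39.6 ± 2.05, 6.02 ± 0.631 and 19.8 ± 0.346 CPM, against 3.01 ± 1.48 CPM, and was higher with all 3 (3.72, 1.01 and 2.72). ADAMTS1, which cuts proteoglycans, averaged 7.99, 1.47 and 11.4 CPM, against 6.34 CPM, and was lower with mutation 2 (-2.10, adjusted p = 6.40e-06) but higher with mutation 1 (0.33, adjusted p = 0.0426) and mutation 3 (0.84, adjusted p = 2.59e-04). ADAM28 averaged 0.954, 10.4 and 0.239 CPM, against 10.1 CPM, and was lower with mutations 1 and 3 (-3.41 and -5.33).

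Other cell-surface serine proteases and their inhibitors numbered 23, with 16 tested: 6 were higher and 2 lower with mutation 1, 1 and 4 with mutation 2, and 3 and 4 with mutation 3, with medians of 0.80, 0.06 and 0.08. Leaving out wild-type replicate 1 gave 12 and 3, 9 and 6, and 10 and 5, so with mutations 2 and 3 more genes were then called higher than lower. Without mutation 2 replicate 2, 3 genes were called with mutation 2. TFPI, the tissue factor pathway inhibitor, averaged 149 ± 4.52, 98.7 ± 8.71 and 152 ± 4.41 CPM, against 86.5 ± 3.11 CPM, and was higher with all 3. SPINT2, an inhibitor of hepatocyte growth factor activator, was higher with mutation 1 (0.42, adjusted p = 0.00215) and lower with mutation 2 (-0.79, adjusted p = 1.44e-04). SERPINB8 averaged 0.592, 14.5 and 1.84 CPM, against 15.3 CPM, and was lower with mutations 1 and 3 (-4.66 and -3.03). PRSS23 was lower with mutations 2 and 3 (-0.96 and -0.69).

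Of 17 genes that activate or regulate metalloproteinases, 15 were tested: 9 were higher and 2 lower with mutation 1, 2 and 7 with mutation 2, and 2 and 4 with mutation 3, with medians of 0.53, -0.10 and -0.14. When wild-type replicate 1 was left out they were 11 and 3, 6 and 7, and 7 and 6, nearly even with mutations 2 and 3. Without mutation 3 replicate 3, 3 genes were called with mutation 3. TGFB1, a growth factor that regulates many matrix genes, averaged 259 ± 11.6, 68.8 ± 0.773 and 115 ± 5.52 CPM, against 129 ± 6.02 CPM in wild type. It was higher with mutation 1 (1.00, adjusted p = 1.21e-07) and lower with mutation 2 (-0.91, adjusted p = 3.85e-06) and mutation 3 (-0.17, adjusted p = 0.0297), the same signs as TIMP1. RECK, a membrane-anchored inhibitor of metalloproteinases, averaged 21.7, 11.1 and 17.01 CPM, against 15.04 CPM, and was higher with mutation 1 (0.53, adjusted p = 9.58e-04) and lower with mutation 2 (-0.43, adjusted p = 0.00878). THBS2, a matrix protein that aids MMP2 uptake, averaged 52.3, 47.5 and 4.25 CPM, against 3.003 CPM. It was called higher with mutations 1 and 2 (log2 fold changes 4.14 and 4.0, and 4.98 and 4.84 without wild-type replicate 1). With mutation 3 it was called higher only without that library (1.36). F2RL1, the protease-activated receptor 2, was lower with all 3 (-0.90, -1.16 and -1.44). CLDN1, a claudin able to promote MMP2 activation, was also lower with all 3 (-1.68, -0.75 and -2.58).

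**Figure D5:**
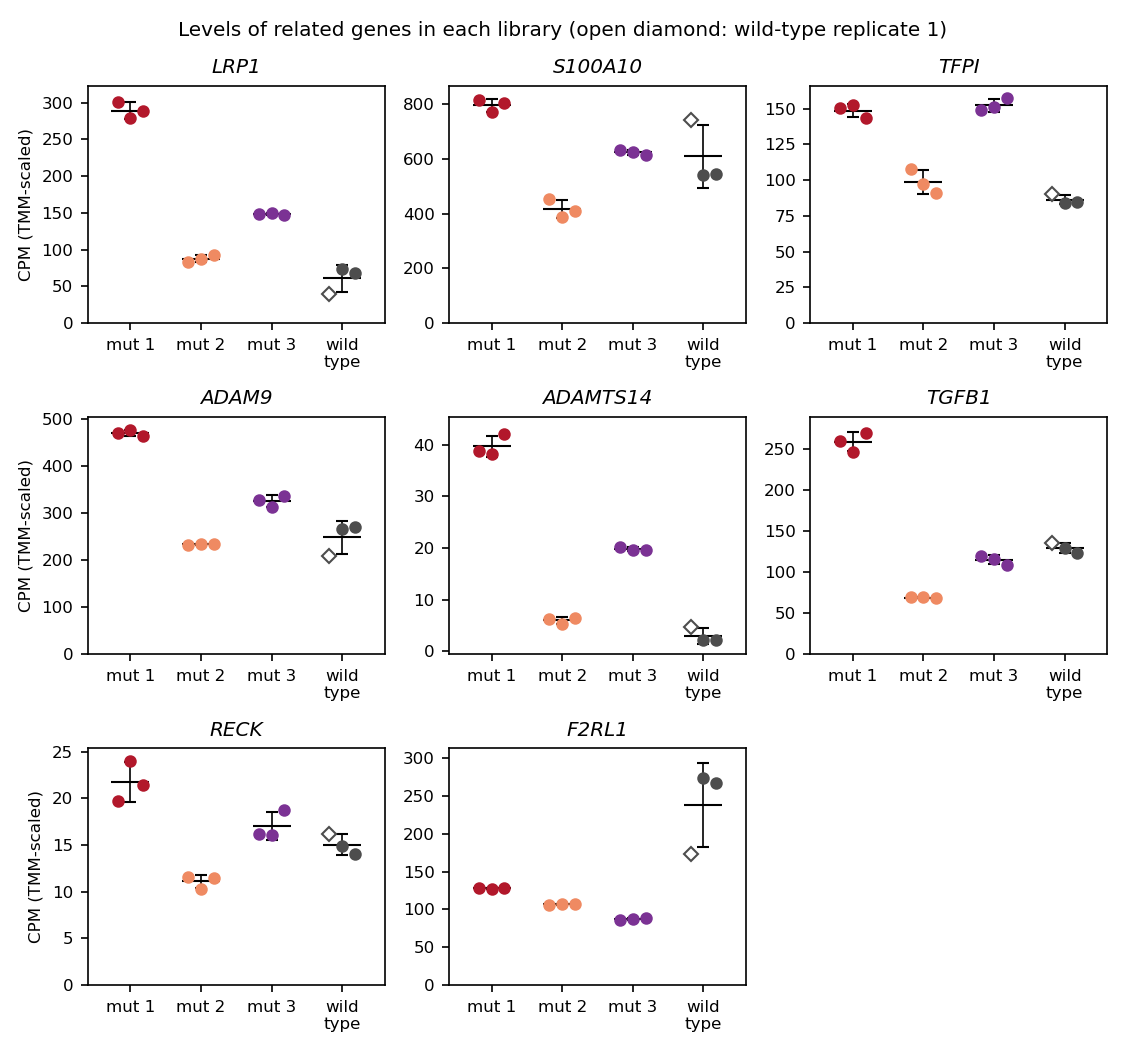
Level of 8 related genes in every library (y axis, TMM-scaled CPM; each panel has its own scale) for mutations 1, 2 and 3 and wild type; points are libraries, bars show mean ± SD of 3, and the open diamond is wild-type replicate 1. LRP1 is above every wild-type library in all 9 mutant libraries, and TGFB1 and RECK are highest with mutation 1 and lowest with mutation 2.

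Over the 12 libraries the members fell into pairs of like pattern, by Pearson's r of log2(CPM + 0.5), given as a description: MMP1 with SERPINE2 (0.98), MMP14 with PLAUR (0.94) and TIMP1 with TIMP2 (0.93). The libraries come from 4 groups and share wild-type replicate 1, so the 12 points are not independent. The genes most like each member, among those of at least 5 CPM on average, were STAT6 and GTF2A1 for MMP1 (0.996 and 0.994), CST1 and EXOSC8 for SERPINE2 (0.995 and 0.992), and FHIP2B and TM4SF1 for MMP14 (0.983 each). They were LRRC8A and ARF6 for PLAUR (0.988 each), GADD45B and GPR160 for TIMP1 (0.989 and 0.986), and SNORD14E and HAPSTR1 for TIMP2 (0.994 and 0.985). For TIMP3 they were KLHL17 and R3HDM2 (0.996 and 0.992), for PLAU MICAL3 and ADGRG1 (0.979 and 0.977), and for MMP2, at its few counts, NHP2 and PHETA1 (0.907 and 0.883). Likeness this close was common for some members: 273 of 10421 genes passed 0.95 with MMP1, but 8 of 10420 with PLAU and 0 with MMP2.

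The pair MMP14 and PLAUR was compared in promoter sequence, as were the 4 other members with an entry in the RefSeq table. The 3 mutant groups had the same order in both genes of the pair, an order that TIMP1 and TIMP3 shared. The 250 bases before each start were searched on both strands for 4 motifs, the AP-1 site TGANTCA, the Sp1 site GGGCGG, the TATA box TATAAA and the CCAAT box CCAAT. Of 35116 promoters of that length, 6.57% held the AP-1 letters, 42.6% the Sp1, 10.7% the TATA and 32.0% the CCAAT letters. The promoters of the pair are printed on their gene's strand, 5′ to 3′, with matches in capitals, MMP14 at chr14:22836335-22836584 (plus) and PLAUR at chr19:43670170-43670419 (minus).
MMP14 promoter: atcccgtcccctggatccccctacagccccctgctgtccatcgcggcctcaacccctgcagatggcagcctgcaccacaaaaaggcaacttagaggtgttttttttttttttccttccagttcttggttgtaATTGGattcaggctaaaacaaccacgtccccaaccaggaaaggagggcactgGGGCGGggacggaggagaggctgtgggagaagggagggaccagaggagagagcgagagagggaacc
PLAUR promoter: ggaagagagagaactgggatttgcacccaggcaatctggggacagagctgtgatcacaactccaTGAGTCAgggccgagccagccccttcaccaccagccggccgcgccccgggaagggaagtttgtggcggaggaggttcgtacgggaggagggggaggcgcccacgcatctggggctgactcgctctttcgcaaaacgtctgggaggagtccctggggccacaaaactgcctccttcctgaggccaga
The pair shared none of the 4 motifs: MMP14 held 1 Sp1 and 1 CCAAT match, and PLAUR held 1 AP-1 match, TGAGTCA, from 186 to 180 bases before its start. Among the members with an entry, only PLAUR had the AP-1 letters. MMP1, MMP2 and TIMP2 had no entry, so their promoters were not searched. The TIMP3 promoter held 5 Sp1 matches and the first SERPINE2 promoter 7 CCAAT matches.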

How the data were processed

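Poly(A)-selected RNA was sequenced in 12 libraries. The values the authors deposited are raw read-pair counts for each gene, made per the file headers with featureCounts 2.0.6, without strand and with a minimum mapping quality of 10 on hg38. Per the submitters' processing notes, cutadapt 1.9.1, FastQC 0.11.8, SAMtools, STAR and DESeq2 were used as well. Unstranded counting cannot separate antisense genes. Symbols were found for 56105 gene IDs (87.3%), and coordinates and exon lengths came from GENCODE v29.

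The comparisons used edgeR 4.0.16 quasi-likelihood tests (R 4.3.3; TMM scaling, robust, filterByExpr with minimum count 10 and total 15) on 15094 genes in all 12 libraries, with 8 residual degrees of freedom. The SE is the fold change over the root of its F value and is approximate. Ratios used a pseudocount of 0.5 and exact permutation (SciPy 1.17.1). Alternatives were DESeq2 1.42.0, other scalings, no filter, fits of 2 groups and leaving out each library. The tests were also run on simulated counts whose replicates had the same spread in every group. No simulated library stood apart as wild-type replicate 1 did, so that run does not check such a case. Group labels come from GEO, and the replicate numbers of mutant libraries are only names. Named were the 9 members, up to 4 genes of each of 5 related lists with the lowest F-test p, 7 further enzymes and inhibitors, and the 2 most alike genes per member. A planned ratio and the gene it needs are not reported here and were left out of the lists. The 3 marker lists (cell line identity, fibroblast, leukocyte and endothelial) were summed. The members and lists were chosen with earlier results of these data known.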

Additional observations from a re-analysis of the deposited data

How the results depend on the processing

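The counts of genes and members called depended mainly on wild-type replicate 1 and on whether other groups entered the fit. Leaving out each library in turn, genes called ran from 9644 to 13064, 4208 to 10726 and 7969 to 12179 for mutations 1, 2 and 3 against wild type, and from 8963 to 12677, 5146 to 10521 and 6763 to 11518 for mutation 1 against 2, 1 against 3 and 3 against 2. Members called ran from 6 to 9, 4 to 8, 4 to 8, 6 to 8, 3 to 8 and 2 to 7 in the same order, and members differing among the 4 groups from 8 to 9. With only the 2 groups in the fit, 2589 genes were called for mutation 2 against wild type and 10073 for mutation 1 against mutation 3, and members called were 2 for mutation 2 and 4 for mutation 3 against wild type, 8 for mutation 1 against 3 and 7 for mutation 3 against 2. In the same order, these fits called 1223 higher and 1366 lower of 14002 genes, and 2864 and 3736 of 14168. They then called 4979 and 5094 of 14207, and 5511 and 5483 of 14143. Without the low-count filter, members called were 3, 3, 2 and 2. Of the 33223 genes then tested, 2064 and 2513, 4012 and 4631, 2669 and 3089, and 3574 and 3792 were called higher and lower. DESeq2 called 8 members for mutation 2 against wild type, where 2736 of 15094 genes were higher and 3110 lower. The cause was not tested.

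Without the low-count filter, the edgeR calls lost (adjusted p 0.0508 to 0.269) were MMP1 and MMP14 with mutation 2 and MMP14, PLAU, PLAUR and TIMP1 with mutation 3 against wild type, MMP14 in mutation 1 against 2, MMP1, PLAUR and TIMP3 in mutation 1 against 3, and MMP1 and TIMP1 in mutation 3 against 2. Upper-quartile scaling in edgeR lost PLAU with mutation 3 against wild type (adjusted p 0.0533) and MMP1 in mutation 3 against 2 (0.0512). It gained TIMP3 and SERPINE2 as lower with mutation 2 (0.0442 and 0.0444). The DESeq2 Wald test gained these as well (0.0369 and 0.0248), and MMP2 as higher with mutation 2 (0.0497). It also gained PLAU as higher in mutation 1 against 3 (0.031). Signs changed for small differences. TIMP2 under upper-quartile scaling was at -0.007 (mutation 2) and -0.002 (mutation 3) against wild type and 0.005 for mutation 3 against mutation 2. Against wild type with mutation 3 it was -0.001 with the 2 groups alone and -0.018 to 0.032 when a library was left out, and for mutation 3 against mutation 2 that range was -0.044 to 0.003. Left-out libraries took PLAUR with mutation 1 from -0.113 (without wild-type replicate 1) to 0.462, and MMP2 in mutation 1 against mutation 3 from -0.016 to 0.964. The ratio of MMP2 to TIMP2 for mutation 1 against 3 ran from -0.988 to 0.036.

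Of the called differences of the related genes named here, none changed sign in these alternatives; 84 of the results with a library left out and 26 of those under another setting were no longer called, and 1188 and 503 still were. No paired analysis was possible because the mutant libraries carry no replicate numbers in the labels. MMP2 did not pass the filter in 5 of the fits of 2 groups. Depth limits MMP1 with mutation 1 and MMP2 everywhere to a few counts.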
